A study of Homo sapiens with 2 samples.

Results

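The transcripts of 10 proteins of the large (60S) ribosomal subunit were followed in human cells whose cytoplasmic poly(A)-binding protein had been exchanged: RPLP0, RPL3, RPL5, RPL13, RPL13A, RPL19, RPL7A, RPL11, RPL10A and RPL6. The deposited files name no genes, so each gene was taken as the poly(A) sites on its strand inside its hg19 window that occur in both tables. This gave 12 of the 8995 sites with reads. The windows of 8 genes held 1 such site each, and those of RPL13A and RPL7A held 2 each. The site with the most reads stands for its gene below, and the other sites are given separately.

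The cells were HCT116, a human colon cancer line, and the length of the poly(A) tail was read on single native RNA molecules by direct RNA sequencing on a nanopore instrument. Both endogenous proteins, PABPC1 and PABPC4, carried an mAID degron tag in all cells, the uninduced ones included, which marks them for destruction when indole-3-acetic acid (IAA) is added. A Sleeping Beauty transposon carried the doxycycline-induced replacement, which was either PABP1212, a PABPC1 with its RRM1 and RRM2 domains (the RNA-binding part that grips the tail) duplicated, or PABPC1 itself. The lines were polyclonal, with several transposon copies per cell.

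Each transgene had 1 library, made of an uninduced, unsorted subsample and of 4 subsamples of cells kept for 13 days in 1 μg/mL doxycycline and 0.5 mM IAA and then sorted by transgene level into gates of 25% of the cells. These are called uninduced, lowest, second-lowest, second-highest and highest below, and values are always given in that order. A sorted level merges 3 barcodes and an uninduced subsample has 1, so that each level is 1 observation without a replicate. The transgene cannot be told apart from the library, nor the level from its barcodes. Besides replacement, sorted cells had been given doxycycline and IAA, had passed the sorter and carry other barcodes than uninduced cells. Depth ran from 139869 to 630986 reads per subsample in the PABP1212 library and from 65862 to 193416 in the PABPC1 library. Without gene names, neither the transgene nor markers of the cell line could be checked.

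Ribosomal proteins are made in equal numbers for each new ribosome, and their mRNAs are among the most abundant in growing cells. In vertebrates these mRNAs start with a C followed by a run of pyrimidines, the 5′ terminal oligopyrimidine (TOP) motif, through which mTOR signalling and the LARP1 protein set their translation. They are short, stable and well translated, and such mRNAs are known to carry rather short tails. Cytoplasmic poly(A)-binding protein coats the tail, links it to the cap through eIF4G, and also binds the deadenylases that shorten it.

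The annotated starts of the genes, from the RefSeq promoter table (GRCh38.p14), are shown because the TOP motif is what defines this class of mRNA. The table held 9 of the 10 genes, RPL5 not among them. Each line gives 10 bases before the start and 20 from it on the gene's strand. Capitals mark a match, which is a C and the C or T bases after it, at least 4 of them. C or T bases before a match stay in small letters.
RPLP0: ggcgcgaggcCCTTCTCTCgccaggcgtcc
RPL3: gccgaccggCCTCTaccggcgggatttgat
RPL13: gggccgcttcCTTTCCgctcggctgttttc
RPL13A: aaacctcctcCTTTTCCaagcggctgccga
RPL19: agctctttcCTTTCgctgctgcggccgcag
RPL7A: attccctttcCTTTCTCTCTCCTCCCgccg
RPL11: gctccgctttCTCTTCCTgctctccatcat
RPL10A: aagacatgctagtCTCTTTTCCggttagcg
RPL6: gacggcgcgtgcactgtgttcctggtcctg

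Where a gene had several annotated starts, the one with a match nearest to it is shown. A match stood exactly at the start in 5 of 9 members, against 5.14% of 27305 genes in the table, searched on the gene's strand only. It stood within 10 bases of the start in 8 of 9 members and in 38.4% of all genes. C or T bases before a match were allowed, and all 5 members with a match at the start have them. Their runs of C and T therefore begin upstream of the annotated start. RPL6 had no match in that window. A match describes the letters of the annotated start, and the starts used in these cells were not measured.

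The sites were among the most read of the data. By reads over all 10 subsamples, RPLP0 (site 12:120634502, minus strand) ranked 9 of 8995 with 11398 reads, and RPL13 (16:89629485, plus strand) ranked 11 with 10318. RPL10A (6:35438562, plus strand), the least read, ranked 91 with 4019. The others held between 5158 reads at RPL5 (1:93307478, plus strand) and 6538 at RPL19 (17:37360980, plus strand). They lay at 22:39708887 (RPL3, minus strand), 1:24022908 (RPL11, plus strand), 12:112842938 (RPL6, minus strand), 9:136218299 (RPL7A, plus strand) and 19:49995100 (RPL13A, plus strand). Positions are those of the files, read as hg19 by the windows. Ribosomal protein genes have many near-identical processed pseudogenes, and how reads were assigned among such copies is not given in the sources used here.

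Median tails of all 10 members were longer at the lowest transgene level than at the highest one in both libraries, and at the 2 upper levels they were shorter in the PABP1212 than in the PABPC1 library. The proteins of the 2 stalks, which reach out of the subunit to guide factors and tRNAs, come first. RPLP0, the base of the P stalk that recruits translation factors, had median tails of 73, 98, 73, 60 and 57 nt in the PABP1212 library, against 79.5, 100, 83, 78 and 72 nt in the PABPC1 library. At the highest level the 95% interval of the median, from order statistics, was 56 to 59 nt with PABP1212 and 64 to 79 nt with PABPC1. At that level RPLP0 had the shortest median of the members in both libraries. Its intervals did not overlap between libraries there, and neither did those of any other member. The intervals cover counting error only, and how many other sites had intervals apart was not counted. The median over the 902 other sites with at least 10 reads in every subsample was also shorter with PABP1212 there, 82 nt against 100 nt with PABPC1. Over the 81 of them with at least the 4019 reads of RPL10A it was 64 nt against 85 nt. RPL10A, part of the L1 stalk beside the exit site of tRNA, had medians of 86, 118, 87, 65 and 67 nt with PABP1212, against 95, 112, 88, 88.5 and 89 nt with PABPC1. Its PABP1212 intervals were 104 to 141 nt at the lowest level and 63 to 73 nt at the highest, while those with PABPC1 were 95 to 124 nt and 80 to 106 nt and overlapped.

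RPL5 and RPL11 form the 5S ribonucleoprotein with the 5S rRNA, and when free of the ribosome they bind and inhibit MDM2, the ligase that destroys p53. RPL5 had median tails of 94.5, 113.5, 85, 73 and 73 nt with PABP1212 and of 93, 117, 111, 93 and 106 nt with PABPC1. Its highest-level intervals, 68 to 76 nt with PABP1212 and 96 to 116 nt with PABPC1, were apart, as in the other members. RPL5 was the member with the longest tail there in both libraries. RPL11 had 80, 99, 74, 60 and 58 nt with PABP1212 and 87, 98, 79, 81 and 78 nt with PABPC1. The partners of this particle therefore differed from each other by 15 nt at the highest level of PABP1212 and by 28 nt at that of PABPC1.

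The other members bind rRNA in the body of the subunit. RPL3, which lies near the peptidyl transferase centre, had medians of 85, 110, 94, 75 and 72 nt with PABP1212 and of 86, 103, 100, 87 and 83 nt with PABPC1. RPL6 had 86, 105, 83, 68 and 71 nt with PABP1212, against 93, 105, 95.5, 96 and 89 nt with PABPC1. RPL7A had 79, 111, 75, 62 and 59 nt with PABP1212 and 90, 95.5, 86, 85 and 85 nt with PABPC1. In RPL7A the lowest and highest PABP1212 levels were 52 nt apart, the most of any member in either library, whereas its medians at the lowest and highest PABPC1 levels were 10.5 nt apart.

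RPL13 had median tails of 77, 107, 73, 62 and 59 nt with PABP1212 and of 76, 105, 84, 72 and 75 nt with PABPC1. RPL13A had 80, 108, 77, 64 and 63 nt with PABP1212, against 77, 100, 89, 72 and 76 nt with PABPC1. RPL19, part of a bridge between the ribosomal subunits, had 81, 100, 70, 63 and 62 nt with PABP1212 and 75, 102, 100, 81 and 80.5 nt with PABPC1. At the second-lowest level the RPL19 tail was 30 nt shorter in the PABP1212 than in the PABPC1 library.

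**Figure D1:**
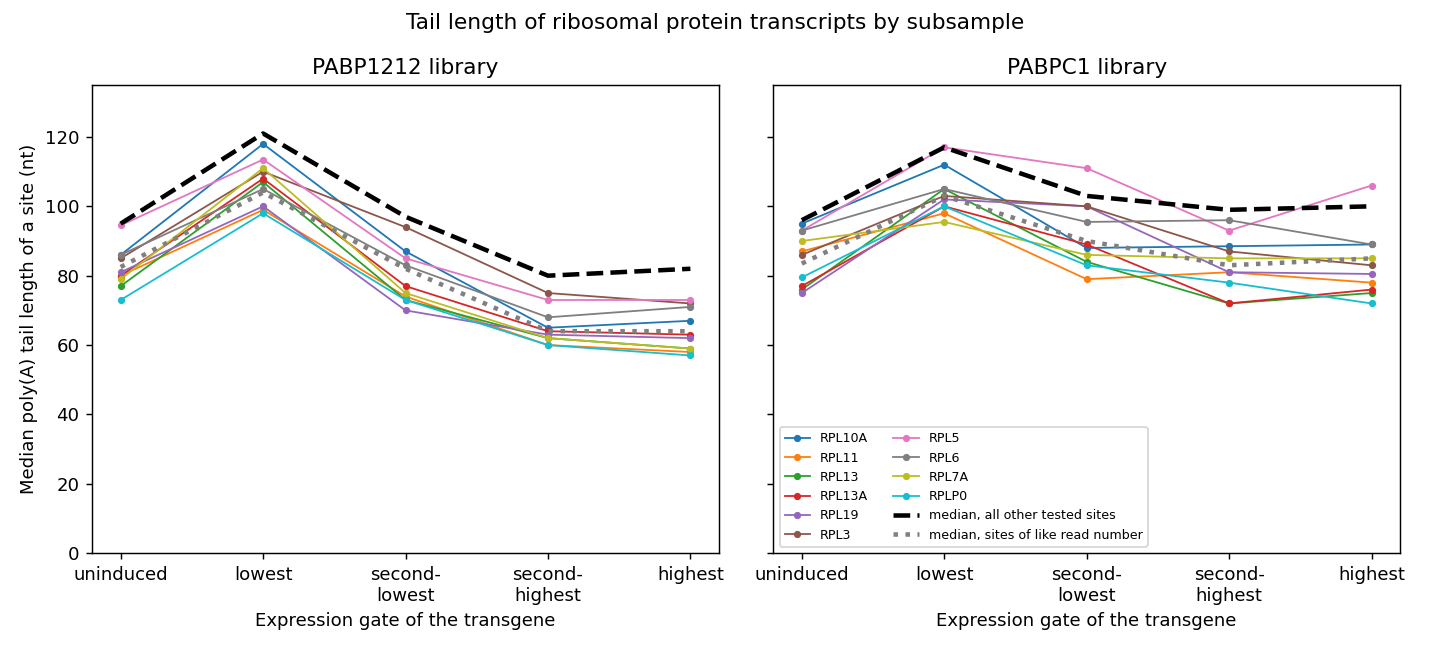
Median poly(A) tail length (nt, vertical axis) of each of the 10 members in the 5 subsamples of the PABP1212 and the PABPC1 library (horizontal axis, uninduced and then sorted levels from low to high). The dashed line is the median over all other tested sites. The dotted line is that over the other sites with at least as many reads as the least-read member. With PABP1212 each member is longest at the lowest level, between 98 and 118 nt, and lies between 57 and 73 nt at the highest, while with PABPC1 the members lie between 95.5 and 117 nt at the lowest and between 72 and 106 nt at the highest level.

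Set against the uninduced cells of the same library, tails at the lowest PABP1212 level were longer in 10 of 10 members, by a median of 25 nt with a range of 19 to 32 nt. At the highest PABP1212 level they were shorter in 10 of 10, with a median change of -18.5 nt and a range of -22 to -13 nt. Sites of like read number (81 others with at least the 4019 reads of RPL10A) did much the same, with 98.8% longer at the lowest and 100% shorter at the highest PABP1212 level. With PABPC1 the lowest level was longer in 10 of 10, by a median of 18.8 nt (5.5 to 29 nt), as were 98.8% of the sites of like read number. The highest PABPC1 level was shorter than uninduced in 8 of 10 and longer in RPL19 and RPL5, with a median change of -3.5 nt. Most other sites lay on the opposite side there, with 56.1% of all other tested sites longer (median change 3 nt) and 56.8% of those of like read number (median change 1.5 nt), a difference that was not tested. In uninduced cells, where the transgene was not induced, PABP1212 minus PABPC1 medians ran from -11 to 6 nt, shorter in 6 members and longer in 4.

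Taken over members, the median of the site medians was shorter than that over the 902 other sites with at least 10 reads in every subsample. This did not hold for each member, since RPL5 with PABPC1 had 111 nt at the second-lowest and 106 nt at the highest level. Over members the medians were 80.5, 107.5, 76, 63.5 and 62.5 nt in the PABP1212 library, against 95, 121, 97, 80 and 82 nt over the other sites. In the PABPC1 library they were 86.5, 102.5, 88.5, 83 and 81.8 nt over members, against 96, 117, 103, 99 and 100 nt over the others. The difference was small beside sites of like read number. Over those 81 sites, medians were 82.5, 104, 82, 64 and 64 nt in the PABP1212 library and 83.5, 103, 90, 83 and 85 nt in the PABPC1 library. These sites carry no gene names and may include further ribosomal protein transcripts.

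Tail length over the 4 sorted levels was tested at every such site with limma, as a slope of the mean log2(nt + 1) per level. In the PABP1212 library the slope was negative and passed an adjusted p of 0.05 in 10 of 10 members, against 15.2% of the 914 sites tested. Among the 81 other sites of like read number 90.1% passed, so the members' count is close to that of deeply read sites. RPL7A had the steepest slope, -0.20 ± 0.04 log2 per level (SE, limma adjusted p = 0.00209). RPL13 had the smallest p, with -0.18 ± 0.03 (limma adjusted p = 0.00119), and RPL6 the shallowest slope, -0.14 ± 0.04 (limma adjusted p = 0.0123). The slopes of the rest lay between these, in the order RPL11, RPL10A, RPLP0, RPL13A, RPL3, RPL19 and RPL5 from steep to shallow, and neighbours in this order differed by less than their standard errors.

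The median slope was -0.17 log2 per level over members, -0.14 over the 902 other sites and -0.16 over the 81 of like read number. After the median over all tested sites was subtracted from each subsample, the members' median slope was -0.0450 and 0 of 10 members passed, against 1.09% of sites. Without weights for read number 3 of 10 members passed, near the 25.3% of all sites that then did. With the lowest PABP1212 level left out 2 of 10 passed, against 1.2% of sites, and with the second-lowest left out 2 of 10, against 1.42%. As plain slopes of the medians in nt, members and other sites were close, with -13.7 nt per level over members and -13.4 nt over the other sites.

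With PABPC1 the slope was negative in 10 of 10 members and in 81.3% of the other sites, from -0.16 ± 0.06 log2 per level in RPL13 to -0.08 ± 0.09 in RPL10A, and 0 of 10 passed (limma adjusted p = 0.995). The background was 0% of 914 sites. At an unadjusted p under 0.05 there were 15 such sites, 2 of them members, RPL13 and RPL13A. The median slope was -0.10 over members and -0.08 over the other sites. The difference between the slopes, PABP1212 minus PABPC1, ran from -0.10 ± 0.08 in RPL7A to -0.02 ± 0.07 in RPL13 (SE), again with 0 members and 0% of 914 sites passing limma's adjusted threshold. No member and 2 sites had an unadjusted p under 0.05 for it. A steeper slope with PABP1212 was therefore not shown at these member sites, and the standard errors leave room for differences of either direction. Without the highest PABP1212 level, 7 of 10 members and 15.2% of sites passed for this difference.

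**Figure D2:**
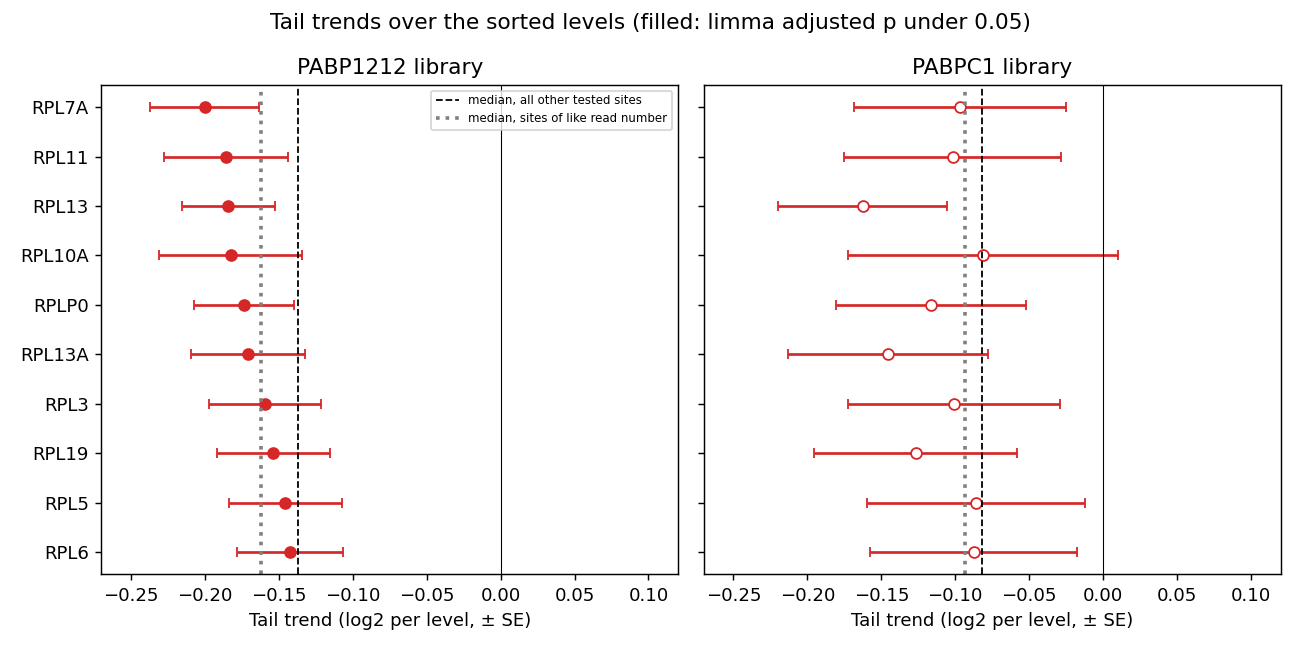
Slope of the mean log2(tail length + 1) per transgene level (horizontal axis, log2 per level) for each member in the PABP1212 and the PABPC1 library, with bars of 1 standard error; filled points passed limma's adjusted p of 0.05. All 10 PABP1212 slopes are filled and lie between -0.20 and -0.14, and all 10 PABPC1 slopes are open and lie between -0.16 and -0.08, beside medians of -0.14 and -0.08 over the other tested sites.

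Tails were also set against uninduced cells, taking the fitted line midway between the second-lowest and second-highest level. The line was weighted by reads, which differed between levels, so this value is not the mean of the 4 sorted levels. Tails were longer at the lowest level and, with PABP1212, shorter at the upper levels. With PABP1212 this change from uninduced was negative in 10 of 10 members and in 77.2% of the other sites. It ran from -0.21 ± 0.09 log2 in RPL19 to -0.07 ± 0.09 in RPL3, with a median of -0.15 over members and -0.12 over the other sites. Without weights for read number the median over all tested sites was -0.09. On a scale of nt without a log the direction turned, with a median of 1.55 nt over members and 2.64 nt over all tested sites. None of the 10 passed (limma adjusted p = 0.99), nor did any of the 914 sites (0%), with 34 sites and 1 member, RPL19, at an unadjusted p under 0.05. Without the highest PABP1212 level the line was still taken at that same point, and 6 of 10 members passed, against 7.22% of sites. With PABPC1 it ran from -0.07 ± 0.16 in RPL7A to 0.15 ± 0.17 in RPL19, again with 0 of 10 members and 0% of sites passing limma's adjusted threshold. At an unadjusted p under 0.05 there was 1 site and no member. The difference between libraries, PABP1212 minus PABPC1, had a median of -0.16 over members and -0.17 over the other sites and passed in 0 of 10 members and 0% of sites, with 2 sites and no member at an unadjusted p under 0.05.

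The medians hide a change in the shape of the tail distribution. Summed over the 10 main sites, reads with tails under 30 nt made up 6.20%, 7.84%, 10.4%, 15.9% and 16.5% of member reads in the PABP1212 library, against 5.64%, 2.76%, 3.95%, 7.46% and 8.78% in the PABPC1 library. At the lowest level the exact Clopper-Pearson 95% intervals, which cover counting error only, were 6.92 to 8.85% with PABP1212 and 2.01 to 3.69% with PABPC1, and the lowest levels of the libraries were apart. At the highest level they reached up to 17.1% with PABP1212 and up to 9.92% with PABPC1, and were apart as well.

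The share of these short tails was larger at the highest than at the lowest level in 10 of 10 members in both libraries. With PABP1212 it exceeded the uninduced share at the highest level in 10 of 10 and at the lowest level in 8 of 10, although median tails there were longer than in uninduced cells. With PABPC1 the lowest level was below the uninduced share in 9 of 10 members, the exception being RPLP0. Summed over the sites of like read number, the shares went the same ways. In uninduced, lowest-level and highest-level cells they were 6.75%, 8.41% and 15.9% with PABP1212 and 5.45%, 3.68% and 7.61% with PABPC1. How many single other sites did so was not counted. RPL7A had the largest share at the highest level in both libraries, 22.2% with PABP1212 and 12.8% with PABPC1, and RPL5 the smallest, 10.6% with PABP1212 and 4.12% with PABPC1.

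Over all other sites the shares under 30 nt were 6.22%, 7.88%, 9.82%, 14.2% and 13.1% with PABP1212 and 5.25%, 3.97%, 4.88%, 7.04% and 6.82% with PABPC1. In the PABP1212 library the highest level exceeded the lowest by 8.70 points over member reads, against 5.25 points over all other reads. In the PABPC1 library it did so by 6.02 points over member reads, against 2.85 points over all others. Over the 81 sites of like read number the excess was 7.46 points with PABP1212 and 3.92 with PABPC1. Half-widths of the members' differences were 1.12 points with PABP1212 and 1.38 with PABPC1, for counting error only, and there is no replicate to test them against.

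Tails of at least 150 nt made up 10.9%, 32.0%, 19.9%, 12.1% and 10.7% of member reads with PABP1212, against 13.4%, 20.5%, 13.7%, 11.7% and 13.9% with PABPC1. All other sites together had more of them in each subsample, with 18.0%, 39.1%, 27.1%, 19.4% and 18.5% with PABP1212 and 19.3%, 30.6%, 22.8%, 21.5% and 22.6% with PABPC1. Sites of like read number were close to the members, with 10.99%, 31.4%, 20.1%, 12.9% and 11.5% with PABP1212 and 11.98%, 21.6%, 14.3%, 13.0% and 14.7% with PABPC1. RPL10A had the largest share at the lowest level of PABP1212, 40.6%, and the next largest was that of RPL7A, 34.5%. The interquartile range of member tails with PABP1212 was 66 nt in uninduced cells, 109 nt at the lowest level and 67 nt at the highest. With PABPC1 the ranges were 71.5, 75.8 and 74 nt. The second-lowest levels had 86 nt with PABP1212 and 68 nt with PABPC1, so that the widest spread was at the lowest PABP1212 level. Other sites showed the same, with 76, 119 and 85 nt in uninduced, lowest-level and highest-level PABP1212 cells over all of them and 66, 108 and 70 nt over those of like read number.

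**Figure D3:**
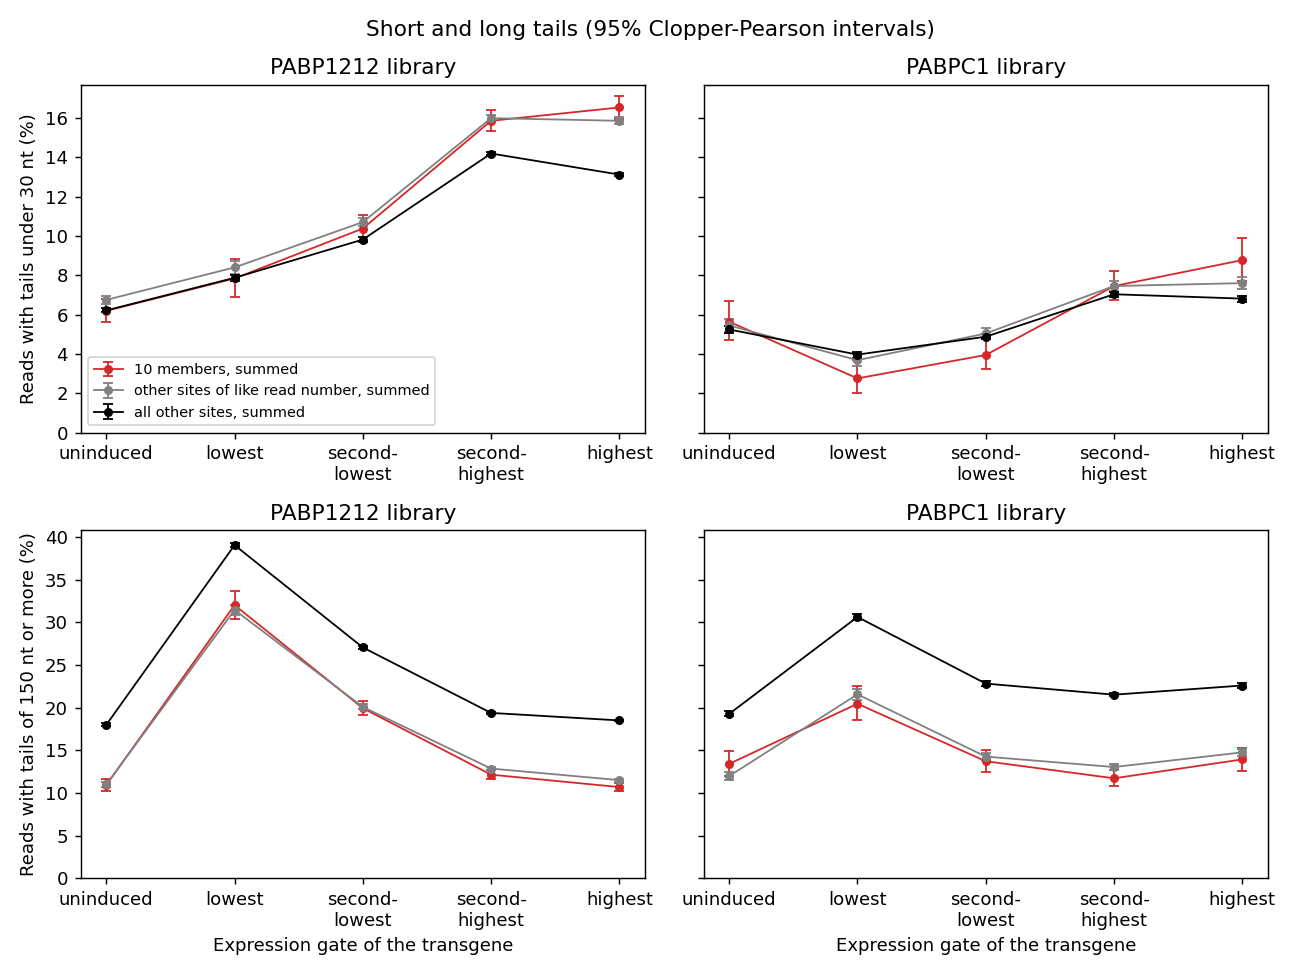
Share of reads (percent, vertical axis) with short tails (under 30 nt) and with long ones (150 nt or more) at the members' main sites and at all other sites, by subsample of the PABP1212 and the PABPC1 library; bars are exact 95% intervals. Short tails of members reach 16.5% at the highest PABP1212 level and 8.78% at the highest PABPC1 level, and long tails peak at the lowest level, with 32.0% for PABP1212 and 20.5% for PABPC1.

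The members' share of all reads was lower in each sorted subsample than in uninduced cells of its library, most so at the lowest PABP1212 level. The 10 main sites took 3.25%, 2.21%, 2.70%, 2.81% and 2.88% of all reads in the PABP1212 library, against 3.15%, 2.42%, 2.57%, 2.45% and 2.52% in the PABPC1 library. Sites of like read number also took less, with 28.95%, 20.5%, 24.3%, 26.0% and 26.4% of reads with PABP1212 and 28.6%, 22.9%, 24.8%, 24.6% and 25.6% with PABPC1. At the lowest PABP1212 level the median log2 change from uninduced was -0.97 over members and -0.92 over these sites. The values are shares of the reads of a subsample, so they say nothing of the amount of mRNA per cell. Reads of RPLP0, scaled to a common total per subsample and given as CPM, were 5999, 2445, 4075, 5135 and 5544 with PABP1212 and 5231, 2884, 4361, 4003 and 4324 with PABPC1. RPL7A had 3539, 1837, 2108, 2151 and 2394 CPM with PABP1212 and 3435, 1884, 2180, 1781 and 1825 CPM with PABPC1. RPLP0 was thus close to its uninduced value at the highest level of PABP1212. RPL7A and RPLP0 were below their uninduced values in all sorted subsamples of both libraries, as was every other member except RPL13A.

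Over the 4 sorted levels, limma on log2(CPM + 1) found 3 of 10 members higher with rising PABP1212, against 19% of the 801 sites tested that were called higher and 59.3% of the 81 other sites of like read number. These were RPLP0, at 0.39 ± 0.07 log2 per level (SE, limma adjusted p = 0.00783), RPL10A, at 0.21 ± 0.07 (limma adjusted p = 0.0429), and RPL19, at 0.19 ± 0.06 (limma adjusted p = 0.0327). RPL10A had 2413, 1120, 1581, 1679 and 1786 CPM with PABP1212 and 2127, 1313, 1667, 1388 and 1415 CPM with PABPC1. RPL19 had 3778, 1901, 2558, 2650 and 2892 CPM with PABP1212 and 3419, 2498, 2358, 2574 and 2616 CPM with PABPC1. In all 10 members, called or not, the lowest of the 5 PABP1212 values was at the lowest level.

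Slopes of all 10 members and of 72.5% of the other sites were positive, the members' smallest being 0.08 ± 0.06 in RPL6 (limma adjusted p = 0.348), with a median of 0.16, against 0.11 over the other sites and 0.21 over those of like read number. The count rests on the lowest PABP1212 level, without which 0 members and 0.12% of sites passed in either direction. It was 1 of 10 with scaling by total reads, near the 14.2% of all sites, and 0 of 10 among the sites with a mean of at least 10 reads, of which 0.187% passed. RPLP0 kept its call in 14 of the 16 alternatives.

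With PABPC1 none of the 10 passed over the levels, against 13% of sites called in either direction and 9.99% called higher, and 1 member, RPLP0, was among the 267 sites with an unadjusted p under 0.05. Its slope was 0.16 ± 0.07 (limma adjusted p = 0.124). Members ranged down to -0.05 ± 0.06 in RPL6, with a median of 0.04 against 0.08 over the other sites. The difference of slopes, PABP1212 minus PABPC1, was positive in 10 of 10 members and in 59.6% of the other sites, from 0.09 ± 0.09 in RPL3 to 0.22 ± 0.10 in RPLP0 (limma adjusted p = 0.648), and passed in 0 of 10 and in 0% of sites. Its median was 0.12 over members and 0.11 over the sites of like read number. At an unadjusted p under 0.05 there were 53 sites, RPLP0 the only member among them.

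The mean of the 4 sorted levels was lower than the uninduced level in the PABP1212 library in 6 of 10 members by limma's adjusted threshold, against 10.5% of 801 sites called lower and 50.6% of the sites of like read number. RPL7A fell most, by 0.74 ± 0.15 on the log2 scale (SE, limma adjusted p = 0.00817). The others called were RPL10A at -0.67 (adjusted p = 0.028), RPL3 at -0.63 (0.028), RPL19 at -0.61 (0.0175), RPL11 at -0.60 (0.032) and RPL5 at -0.49 (0.0342). RPLP0, at -0.55 ± 0.18, missed the threshold (limma adjusted p = 0.0569), and RPL13A had the smallest difference, -0.12 ± 0.15 (limma adjusted p = 0.634). Scaling by total reads left 1 of 10 members called, near the 6.24% of sites then called in either direction, and a filter at a mean of 10 reads also left 1, against 0.959% of 4277 sites.

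In the PABPC1 library 6 of 10 members were lower in the sorted levels, against 15.2% of sites called lower (9.86% were called higher) and 42.0% of those of like read number. RPL7A again fell most, by 0.84 ± 0.15 on the log2 scale (SE, limma adjusted p = 0.00163), followed by RPL5 at -0.61 (adjusted p = 0.00721), RPL10A at -0.56 (0.03), RPL6 at -0.48 (0.0221), RPL11 at -0.48 (0.0468) and RPL19 at -0.45 (0.0351). RPL13A was again the smallest, at -0.11 ± 0.15 (limma adjusted p = 0.62). Weights for precision (voom) left 2 of 10 members called, about the background of 14% of sites in either direction. Leaving out the second-highest or the highest PABPC1 level also left 2 of 10, beside 18.1% and 16.8% of sites. The change differed between the libraries in 0 of 10 members and in 0.624% of sites, with no member at an unadjusted p under 0.05, and the difference, PABP1212 minus PABPC1, ran from -0.21 ± 0.23 in RPL3 to 0.20 ± 0.20 in RPL6. Only 1 uninduced subsample stands behind each of these changes, and RPL7A kept its call in both libraries under all 15 alternatives.

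**Figure D4:**
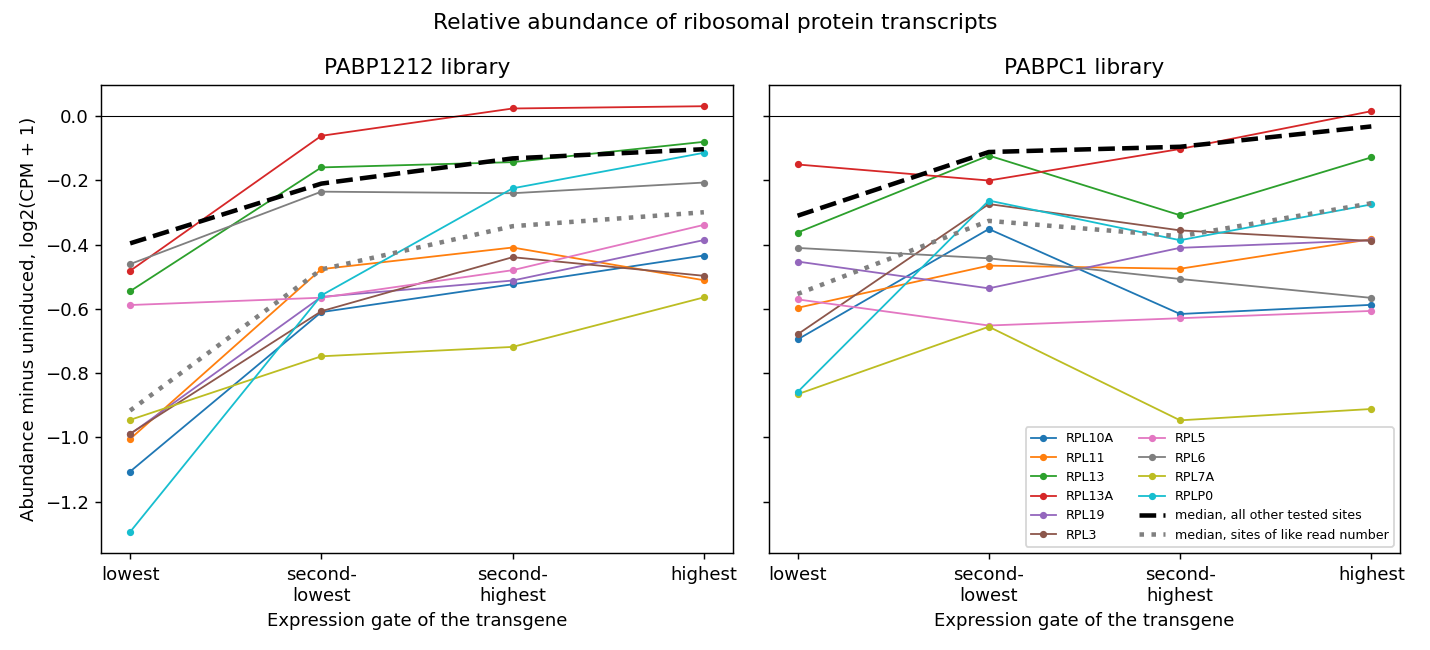
Scaled CPM of each member as log2 difference from the uninduced subsample of its library (vertical axis) at the 4 sorted levels (horizontal axis) of PABP1212 and of PABPC1. At the lowest level members lie between -1.29 and -0.46 with PABP1212 and between -0.87 and -0.15 with PABPC1, and RPLP0 climbs most over the PABP1212 levels.

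RPL13A, which besides its place in the ribosome is known as part of a complex that silences inflammatory mRNAs, ended at either of a pair of sites. The upstream site, 19:49995100, held 65.6% of its reads and the downstream site, 19:49995565, held 34.3%, 465 nt further on the plus strand. A further site with 4 reads occurred in the PABP1212 table only. Annotated RPL13A transcripts in GENCODE v29 (GRCh38) were searched for ends 465 nt apart, the spacing of the sites. This picked ends at positions 49491843 and 49492308 of chromosome 19, so their spacing was the search rule and is no separate match. The sites were read as hg19 and nothing was converted between builds, so whether these ends are the measured sites was not checked. The last 30 bases of 1 transcript for each end follow, with the poly(A) signal AATAAA in capitals. They are shown as possible ends at which the tails compared below begin.
RPL13A-202: gagcccAATAAAgactgttaattcctcatg
RPL13A-201: gtaatcagaAATAAAttgcttttaaagaaa

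Molecules that ended at the downstream site had the longer median tail in 10 of 10 subsamples. Their medians were 99, 117, 88, 74 and 79 nt with PABP1212, against 80, 108, 77, 64 and 63 nt at the upstream site. With PABPC1 they were 95, 110.5, 89.5, 88.5 and 91 nt, against 77, 100, 89, 72 and 76 nt upstream. The difference ran from 0.5 nt at the second-lowest PABPC1 level to 19 nt in uninduced PABP1212 cells. At the highest level the intervals of the medians were apart in both libraries, 75 to 83 nt downstream and 60 to 65 nt upstream with PABP1212, and 86 to 103 nt downstream and 68 to 84 nt upstream with PABPC1. At both lowest levels they overlapped.

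The downstream site took 30.5%, 33.6%, 33.8%, 36.3% and 37.2% of the reads of the pair with PABP1212, against 27.5%, 26.7%, 30.7%, 31.2% and 31.7% with PABPC1. Exact 95% intervals were 27.2 to 33.9% in uninduced cells and 35.3 to 39.1% at the highest level with PABP1212, and 22.1 to 33.5% and 27.4 to 36.3% with PABPC1, where they overlapped. Reads at the downstream site rose over the PABP1212 levels by 0.24 ± 0.06 log2 per level (SE, limma adjusted p = 0.018), while the upstream site had 0.16 ± 0.06 (limma adjusted p = 0.0644). Whether the slopes of the sites differ was not tested. The tail slope of the downstream site, -0.10 ± 0.05 log2 per level with PABP1212, missed the threshold (limma adjusted p = 0.172).

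**Figure D5:**
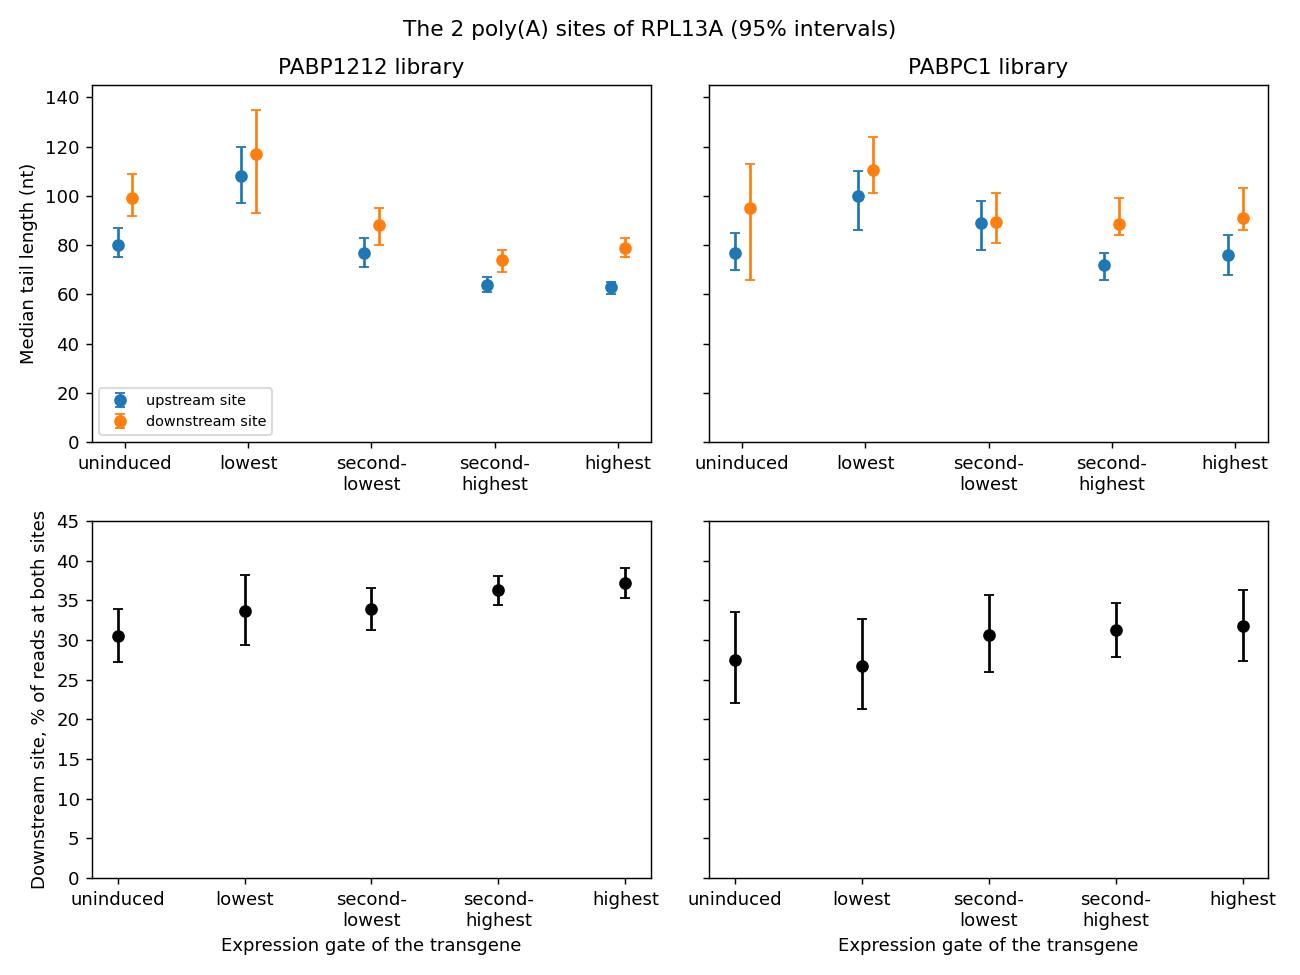
Median tail length (nt) at the downstream and the upstream RPL13A site, and the share of the pair's reads at the downstream site (percent), by subsample of the PABP1212 and the PABPC1 library, with 95% intervals. The downstream site lies above the upstream site in all 10 subsamples, and its share of reads is 37.2% at the highest PABP1212 level and 31.7% at the highest PABPC1 level.

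RPL7A also had a minor site, 28 nt upstream of the main one, at 9:136218271, with 13.4% of its reads. Its medians were 76, 79, 87, 55 and 69.5 nt with PABP1212 and 102, 107.5, 77, 78 and 84 nt with PABPC1, from 16 to 245 reads each. They lay above the main site in some subsamples and below it in others. Its reads were lower in sorted than in uninduced PABPC1 cells, by -0.98 ± 0.24 on the log2 scale (SE, limma adjusted p = 0.0118), in the direction of the main site.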

How the data were processed

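Per the file headers, a row of the deposited tables is 1 read, with the name of the subsample, the poly(A) site and the length of the tail in nt, which was used as the authors deposited it. RNA was sequenced with kit SQK-RNA004 and barcoded adapters, per the labels' protocols. Per the submitters' processing notes, Bowtie2, minimap2 and hg38 were used, in roles and versions not stated there. Which programs called bases and tails is not given in the sources used here. Site positions were read as hg19 from the given windows, and nothing was converted between builds. Reads under sample names that the barcode table does not list were left out.

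Members and lists were chosen with earlier results of these data known. All 10 members are named, each by its most-read site. Tails were tested with limma 3.58.1 (R 4.3.3) on the mean log2(nt + 1), weighted by reads, over 914 sites with at least 10 reads in every subsample. Reads were counted here per site, scaled by median ratios to each site's geometric mean, and tested as log2(CPM + 1) with a variance trend over 801 sites with a mean of at least 50 reads. Terms were library, replacement within library and centred level within library, leaving 4 residual degrees of freedom. P-values were adjusted by Benjamini-Hochberg over all sites tested, with a threshold of 0.05, and the fits were tested on simulated data. The p-values measure the spread around straight lines over levels, which may be technical, and assume that each uninduced subsample varies like the others. Intervals cover counting error only. Sequences came from RefSeq and GENCODE v29 tables. Other steps used Matplotlib 3.10.9, SciPy 1.17.1, pandas 2.3.3 and NumPy 2.4.6 in Python 3.11.15.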

Additional observations from a re-analysis of the deposited data

Results flagged for a closer look

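Each table also holds reads under a name missing from the barcode table, and these entered no comparison. At the members' main sites there were 3141 such reads in the PABP1212 library, 2.82% of the 111259 reads under that name, and 465 in the PABPC1 library, 2.96% of 15723. Their median tail was 61 nt (95% interval 59 to 65 nt) in the PABP1212 library and 87 nt (78 to 91 nt) in the PABPC1 library. Tails under 30 nt made up 30.8% of them (exact 95% interval 29.1 to 32.4%) in the PABP1212 library and 12.7% (9.80 to 16.1%) in the PABPC1 library. Both shares exceed those over members in each of the listed subsamples of the same library. What these reads are was not tested.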

How the results depend on the processing

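No paired analysis was possible because the labels give no replicate numbers and each level is 1 observation. Of the single-member alternatives 597 kept direction and side of the threshold, 94 lost and 7 gained the call, and 12 reversed. Tail slopes with PABP1212 passed in 10 members (15.2% of sites), in 3 without weights (25.3%) and in 0 with subsample medians subtracted (1.09%, median -0.0450 with PABP1212 and -0.024 with PABPC1). That centring put the median PABP1212 change from uninduced at -0.0307, and values in nt turned its sign, to 1.55 nt. Abundance slopes with PABP1212 passed in 1 member scaled by total reads (median 0.098, 14.2% of sites) and 0 with the filter of 10 reads (0.187%). With that library alone 1 member passed (17.9%), and PABPC1 slopes passed in 1 with the PABPC1 library alone (18.4%). Abundance changes from uninduced with PABP1212 passed in 1 scaled by total reads (median -0.40, 6.24%) and 1 with the filter of 10 reads (0.959%). With PABPC1 they passed in 2 with voom (14%). Under 20 nt, the highest minus lowest share over members was 2.33 points with PABP1212 and 2.20 with PABPC1, and at 200 nt or more -12.0 with PABP1212 and -2.83 with PABPC1.

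With each subsample left out in turn, the median tail slope ran from -0.30 to -0.13 with PABP1212 (2 to 10 members passed) and from -0.17 to -0.074 with PABPC1 (0 to 1), and their difference from -0.17 to 0.0063 (0 to 7). Of all sites, 1.2% to 72.8% passed for PABP1212 slopes, 0% to 0.219% for PABPC1 slopes and 0% to 15.2% for the difference. The tail change from uninduced with PABP1212 ran from -0.19 to -0.074 (0 to 6 members and 0% to 7.22% of sites). The abundance slope ran from 0.072 to 0.24 with PABP1212 (0 to 6 members and 0.12% to 30.3% of sites). With PABPC1 it ran from -0.0053 to 0.050 (0 to 1 and 0.461% to 28.1%). The abundance change from uninduced ran from -0.64 to -0.49 with PABP1212 (2 to 7 and 4.44% to 22.7%) and from -0.49 to -0.45 with PABPC1 (2 to 8 and 16.8% to 33.5%). Changes from uninduced cannot be had without that subsample. With a sorted level left out, they are the fitted line midway between the second-lowest and second-highest level, not a mean of the levels that remain. Members passing for PABP1212 tail slopes were 2 without its lowest level (1.2% of sites) and 2 without its second-lowest (1.42%). Without its highest level, 7 passed for the slope difference (15.2%) and 6 for the tail change (7.22%). For abundance slopes with PABP1212, 0 passed without its lowest level (0.12% of sites), 6 without its second-lowest (27%) and 1 without its second-highest (17.3%). It was 5 without the lowest PABPC1 level (30.3%) and 1 without the second-highest PABPC1 level (12.9%). For abundance changes from uninduced with PABP1212 it was 3 without its lowest (6.02%) and 2 without the second-highest PABPC1 level (4.44%).

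Reversed values were all of uncalled results. The RPL13 tail slope difference was 0.035 centred, 0.019 without the lowest PABP1212 and 0.065 without the highest PABPC1 level (-0.14 to 0.065 over single subsamples left out). The RPL3 tail change with PABP1212 was 3.95 nt unlogged, 0.050 centred and 0.0027 without the second-highest level (-0.13 to 0.0027). The RPL7A difference of tail changes was 1.76 nt unlogged and 0.085 centred. The RPLP0 abundance slope with PABPC1 was -0.0069 without its lowest level (-0.0069 to 0.24). The RPL3 abundance slope difference was -0.024 without the lowest PABP1212 and -0.00324 without the highest PABPC1 level (-0.024 to 0.22), and the RPL13A change with PABP1212 was 0.0535 scaled by total reads. The cause was not tested. With 1 observation per level and 92 to 3242 reads per member and subsample, depth limits single members most in the PABPC1 library.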
